A study of Homo sapiens with 12 samples.

Results

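The genes described here are 10 regulators of the integrated stress response: the eIF2alpha kinases EIF2AK3 (PERK) and EIF2AK4 (GCN2), the transcription factors ATF4, ATF5, ATF3, DDIT3 (CHOP), CEBPB and CEBPG, the pseudokinase TRIB3 and the phosphatase subunit PPP1R15A (GADD34). They were taken by name as pathway members, with earlier results of these data known, and are 10 of the 60754 genes in the count tables. All 10 were among the 13422 protein-coding genes with enough counts to be tested. Their values come from RNA sequencing of 12 libraries of the established human acute myeloid leukemia (AML) cell lines Molm-14, labelled M14, and HL-60. The cells had been cultured for 36 h as controls, which the labels call not treated and the study's methods call vehicle-treated, or with a low or a high concentration of duocarmycin SA (DSA), a compound that alkylates adenines in the minor groove of AT-rich DNA. Molm-14 cells, grown in RPMI, received 11.1 pM or 100 pM, and HL-60 cells, grown in IMDM with more serum, received 112.7 pM or 500 pM. Each of the 6 groups held 2 libraries. Dose, medium and serum differed between the lines, so a difference between them cannot be told apart from these. No source used here says that the libraries of a group came from separate cultures, and p-values then measure only the spread between these libraries, which may be technical. In bulk RNA fewer cells of a kind and less RNA per cell cannot be told apart.

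The integrated stress response is a shared answer to several kinds of stress. PERK senses unfolded protein in the endoplasmic reticulum (ER), GCN2 senses uncharged tRNA, and other kinases sense double-stranded RNA or heme and mitochondrial distress. Each phosphorylates the translation initiation factor eIF2 on its alpha subunit, which slows most protein synthesis while the mRNAs of ATF4, ATF5, DDIT3 and PPP1R15A, which carry short upstream reading frames, are translated better. ATF4 then pairs with other basic leucine zipper (bZIP) factors such as CEBPG, CEBPB and DDIT3 and binds composite C/EBP-ATF elements in genes of amino acid synthesis, transport and tRNA charging. PPP1R15A brings a phosphatase to eIF2 and closes the loop, and TRIB3 binds ATF4 and damps it. Because much of this control is on translation, an mRNA level is no measure of the protein's activity, and protein and phosphorylation were not analysed here.

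The element through which ATF4 acts is short enough to be shown. The regions before the RefSeq starts of the genes (GRCh38.p14, the same bases as hg38) were searched on both strands for the C/EBP-ATF composite element, spelled TGATGNAA, and for the cyclic AMP response element, the palindrome TGACGTCA. All 10 regulators had an entry. Within 1000 bases of a start, 5 of the 10 held the composite element, compared with 15.1% of 27305 genes, and within 250 bases 2 of the 10 held it, compared with 3.89%. The cyclic AMP response element was present within 1000 bases in 2 of the 10, compared with 2.82% of genes. The windows below are 30 bases long, read 5′ to 3′ on the strand of the gene, and the capitals mark the match. They are shown for members that held a match, EIF2AK3 left out, and in none of them does the one motif overlap the other.
TRIB3 composite element: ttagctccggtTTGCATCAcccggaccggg
DDIT3 composite element: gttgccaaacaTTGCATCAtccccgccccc
CEBPG composite element: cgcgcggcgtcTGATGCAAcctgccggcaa
ATF3 composite element: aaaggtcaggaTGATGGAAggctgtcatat
ATF3 cyclic AMP response element: tagtttcagctTGACGTCAagcctctttga
PPP1R15A cyclic AMP response element: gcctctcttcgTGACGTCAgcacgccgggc
The TRIB3 window occurs 3 times with identical bases on the plus strand, at chr20:380881-380910, chr20:380914-380943 and chr20:380947-380976, with the matches between 330 and 403 bases before the start at 381295. The DDIT3 window lies at chr12:57520802-57520831 on the minus strand, with its match 296 to 303 bases before the start at 57520517. That of CEBPG lies at chr19:33374060-33374089, with its match 35 to 42 bases before a start. The ATF3 composite element is at chr1:212565205-212565234 and its cyclic AMP response element at chr1:212614510-212614539, before another start of the same gene. The PPP1R15A window is at chr19:48872352-48872381, 51 to 58 bases before its start. EIF2AK3 held a composite element 853 to 860 bases before its start, and ATF4, ATF5, CEBPB and EIF2AK4 held neither spelling in these windows.
For comparison, the asparagine synthetase gene ASNS and the glutathione-degrading CHAC1, which are ATF4 targets described further on, held these windows at chr7:97872458-97872487 and chr15:40953251-40953280.
ASNS composite element: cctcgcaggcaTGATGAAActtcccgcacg
CHAC1 composite element: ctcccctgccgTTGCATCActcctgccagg
A match to these letters is a description of the sequence and was not tested as a binding site.

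Libraries held 21177424 to 63927449 expected counts, the lowest and the highest both in HL-60. Mitochondrial genes took 1.47% and 1.68% of the counts in control Molm-14 cells but 4.09% and 2.72% at 100 pM. In control HL-60 cells they took 2.22% and 2.47%, and 5.46% and 4.64% at 500 pM. PTPRC (CD45), CD33 and the myeloid factor SPI1 were expressed in every library, the lowest value being 47.4 CPM (counts scaled to a common library size) for CD33 in a Molm-14 control. Of 10 AML line markers, 4 were called higher and 2 lower in Molm-14 cells at 100 pM (22.9% and 21.9% of all genes). The numbers were the same in HL-60 cells at 500 pM (35.8% and 37.8%). Between the HL-60 doses 3 were called lower and 2 higher (26.8% and 25.9%). The promyelocyte genes MPO and ELANE fell by 1.07 and 1.33 on the log2 scale there, chosen after their values were seen. Genes of mature granulocytes and monocytes also moved with dose. Of 15 such markers, 12 were called higher in Molm-14 cells at 100 pM and 13 in HL-60 cells at 500 pM, among them ITGAM (CD11b). In each line 1 was called lower. Of all tested genes 22.9% and 35.8% were called higher in these comparisons. Their summed level went from 631 and 616 to 1356 and 1360 CPM in Molm-14 and from 483 and 486 to 1113 and 1099 CPM in HL-60 cells. Of 14 markers of lymphoid, erythroid, stromal and epithelial cells, 6 were expressed well enough to be tested, and the summed level of all 14 rose from 22.8 and 22.3 to 115 and 109 CPM in HL-60 cells, nearly all of it from NKG7 and PECAM1. MS4A1, HBA1 and HBB had no count in any library. The part of these shifts in the results that follow was not tested.

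In the control cells ATF4, the factor that the eIF2 kinases act through, was by far the most abundant of the 10 mRNAs. On the per-length scale of TPM, which allows genes to be compared with each other, its level was 715 ± 0.46 in Molm-14 and 629 ± 18 in HL-60 controls (SD, n = 2). In Molm-14 controls PPP1R15A (64.0 TPM), CEBPG (59.9), TRIB3 (59.4) and ATF5 (50.9) followed, and in HL-60 controls the next were ATF5 (152), PPP1R15A (50.4) and TRIB3 (48.1). The lowest were EIF2AK3 with 4.81 TPM in Molm-14 and ATF3 with 3.19 TPM in HL-60 controls. All 10 genes differed between the controls, where 84% of all tested genes did (edgeR's quasi-likelihood test, adjusted p under 0.05).

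The largest of these differences was in ATF3, a stress-induced repressor and activator of the same bZIP family. It stood at 37.2 and 36.0 CPM in the Molm-14 controls and at 4.37 and 5.02 CPM in the HL-60 controls, a log2 difference of −2.94 (SE 0.088, edgeR adjusted p = 1.3e-16). DDIT3, which drives stress-induced cell death, was at 15.2 and 14.1 CPM in Molm-14 and at 5.66 and 6.21 CPM in HL-60 controls. CEBPG, PPP1R15A, TRIB3 and ATF4 were also lower in HL-60, by 0.68, 0.41, 0.37 and 0.27 on the log2 scale. ATF5 was the opposite, with 66.0 and 72.1 CPM in Molm-14 and 217 and 221 CPM in HL-60 controls (log2 difference 1.66, SE 0.047). EIF2AK4, CEBPB and EIF2AK3 were higher in HL-60 by 0.74, 0.67 and 0.36. The ATF4 target list, 53 genes of which 52 were tested, was lower in the HL-60 controls: 45 were called lower, 28 of them by more than 2-fold, and 3 higher, compared with 40.1% lower and 43.9% higher among all genes. The median log2 difference of the list was −1.23, and that of all genes tested 0.06.

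**Figure D1:**
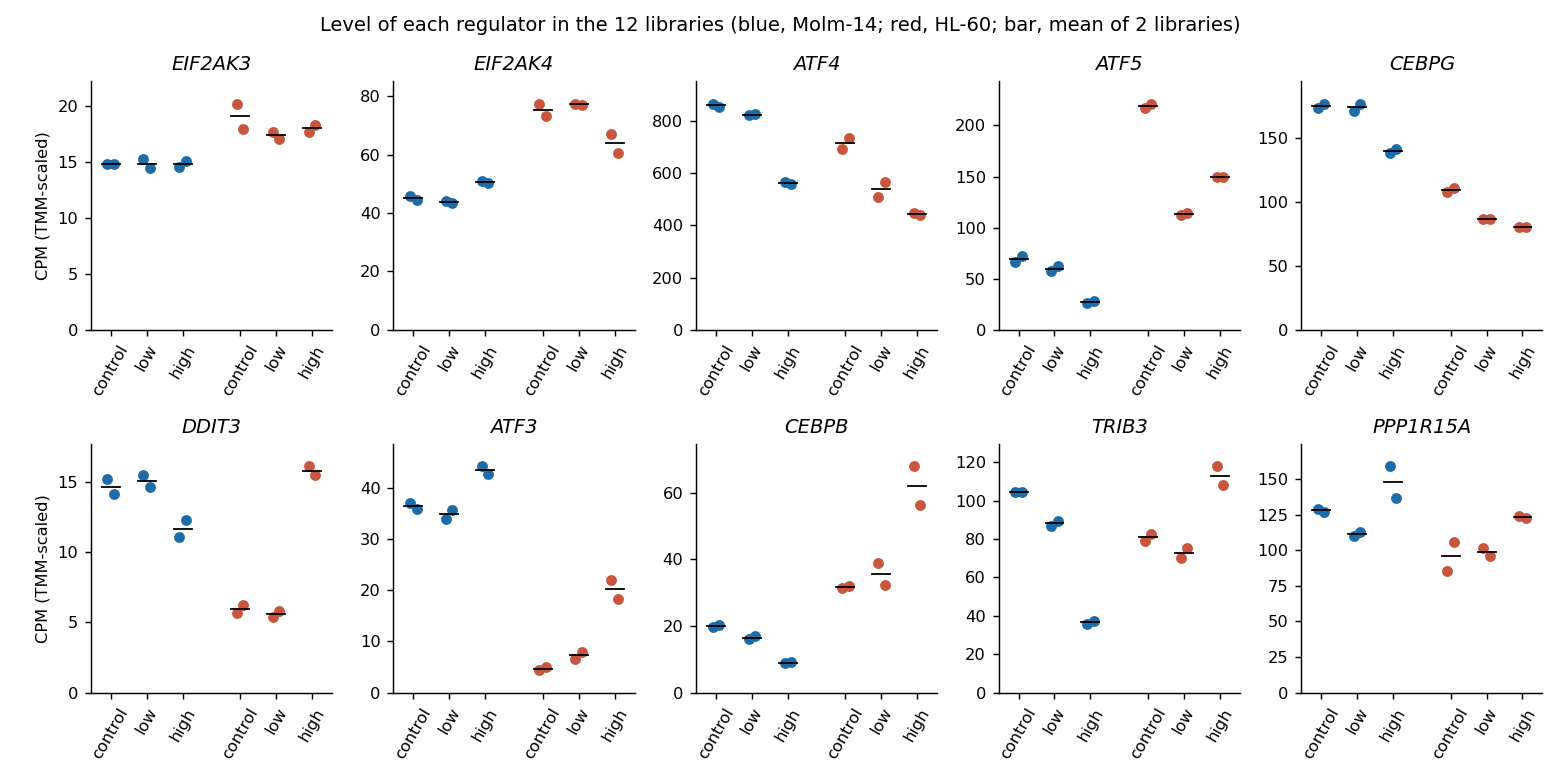
Level of each regulator in TMM-scaled CPM (vertical axis from 0, separate scale in each panel) in the 12 libraries. Points are libraries, bars the mean of 2, blue Molm-14 and red HL-60, each with control, low and high dose from left to right. ATF4 and CEBPG are lowest at the high dose within each line, TRIB3 and CEBPB fall in Molm-14 and rise at the high dose in HL-60, and EIF2AK3 is nearly level.

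At the low dose, 11.1 pM, the regulators of Molm-14 cells moved little. TRIB3 was the 1 member called, lower at 86.8 and 89.6 CPM than the controls at 105 and 105 CPM (log2 change −0.25, SE 0.047, edgeR adjusted p = 0.0108), where 1.21% of all genes were called and 0.238% were called lower. That call did not hold without either control library, without the first low-dose library or at equal depth, where the adjusted p lay between 0.0536 and 0.154. For 7 of the 10 the libraries of the low dose lay below those of the control without overlap, as they did for 22.7% of all genes. ATF5 had a log2 change of −0.20 (adjusted p = 0.0595), CEBPB of −0.28 (adjusted p = 0.189) and PPP1R15A of −0.20 (adjusted p = 0.230). Each of these was called lower in some alternatives. Of the ATF4 targets 9 of 52 were called lower and 0 higher, by small amounts. The leading 4 by p were the leucine transporter SLC7A5 (log2 change −0.22), the glutamine transporter SLC1A5 (−0.18), the tryptophanyl-tRNA synthetase WARS1 (−0.16) and the serine synthesis enzyme PHGDH (−0.17).

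At the high dose, 100 pM, 6 of the 10 regulators fell in Molm-14 cells and 3 rose, compared with 21.9% of all genes called lower and 22.9% called higher. ATF4 fell from 867 and 854 to 568 and 557 CPM (log2 change −0.61, SE 0.039, edgeR adjusted p = 4.0e-10). Larger falls were measured in 3 other members. TRIB3 fell from 105 and 105 to 35.9 and 37.4 CPM (−1.51, SE 0.051), ATF5 from 66.0 and 72.1 to 26.5 and 28.5 CPM (−1.33, SE 0.056) and CEBPB, a partner of ATF4, from 19.6 and 20.4 to 8.83 and 9.04 CPM (−1.16, SE 0.11). In each of these 4 genes both treated libraries lay below both controls. TRIB3, ATF5 and CEBPB were the 3 regulators past a 2-fold change in this comparison, in which 0.73% of all genes fell that far. CEBPG, the dimer partner of ATF4, fell by 0.32 and DDIT3 by 0.33 on the log2 scale. DDIT3 was at 11.05 and 12.3 CPM against 15.2 and 14.1 CPM, and its call was lost without the first high-dose library (adjusted p = 0.0643).

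The 3 regulators that rose in Molm-14 cells at 100 pM rose slightly. ATF3 went from 37.2 and 36.0 to 44.3 and 42.7 CPM (log2 change 0.25, SE 0.068, adjusted p = 0.00538), EIF2AK4 from 45.8 and 44.4 to 51.0 and 50.2 CPM (0.17, SE 0.051, adjusted p = 0.0122) and PPP1R15A from 129 and 127 to 159 and 137 CPM (0.21, SE 0.072, adjusted p = 0.0252). The groups did not overlap in any of them, nor in the 6 that fell, where 37.7% of all genes lay apart upward and 34.5% downward. Each of these calls was lost when certain single libraries were left out, and without the first high-dose library PPP1R15A had a change of 0.09 (adjusted p = 0.408). EIF2AK3 was level, at 14.8 and 14.8 CPM in the controls and 14.5 and 15.1 CPM at 100 pM (log2 change 0.0010, SE 0.075). Between the low and the high dose in Molm-14 cells the same 6 genes were called lower and the same 3 higher, where 18.5% and 19.6% of all genes were. The ATF4 change from 11.1 to 100 pM was −0.55 (SE 0.039) and that of TRIB3 −1.27 (SE 0.051).

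In HL-60 cells at the low dose of 112.7 pM 5 of the 10 regulators were called, 4 lower and 1 higher. Of all genes 27.4% were called lower and 24.2% higher, so calls were about as common among all genes. ATF4 fell from 695 and 735 to 510 and 568 CPM (log2 change −0.41, SE 0.039, edgeR adjusted p = 1.1e-07). ATF5 fell further, from 217 and 221 to 113 and 114 CPM (−0.95, SE 0.046), and ranked 175th from the lowest change of the 13422 genes. CEBPG fell by 0.33 (SE 0.038) and TRIB3 by 0.15 (SE 0.049, adjusted p = 0.0132), a call that was lost in 5 alternatives (highest adjusted p 0.181). ATF3 rose from 4.37 and 5.02 to 6.65 and 7.86 CPM (0.63, SE 0.12). DDIT3, at 5.66 and 6.21 CPM in the controls, was at 5.40 and 5.81 CPM, and the groups overlapped. CEBPB, PPP1R15A, EIF2AK3 and EIF2AK4 were not called, with changes between −0.13 and 0.16.

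At 500 pM the HL-60 regulators were called in both directions, as all tested genes were. ATF3, DDIT3, CEBPB, TRIB3 and PPP1R15A rose, while ATF4, ATF5, CEBPG and EIF2AK4 fell, so that 5 and 4 of the 10 were called where 35.8% of all genes were called higher and 37.8% lower. ATF3 rose from 4.37 and 5.02 to 22.0 and 18.4 CPM, 4.19-fold (log2 change 2.07, SE 0.097, edgeR adjusted p = 7.6e-13). DDIT3 rose from 5.66 and 6.21 to 16.1 and 15.5 CPM, 2.63-fold (1.40, SE 0.090, adjusted p = 7.3e-11). These 2 were past 2-fold, as 16.5% of all genes were in this direction. CEBPB rose from 31.3 and 32.1 to 67.9 and 56.3 CPM (0.96, SE 0.077), TRIB3 from 78.7 and 82.8 to 118 and 108 CPM (0.48, SE 0.047) and PPP1R15A from 85.4 and 106 to 124 and 123 CPM (0.36, SE 0.074). In all 5 both treated libraries lay above both controls, as in 41.6% of all genes.

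ATF4 mRNA itself did not follow them. It stood at 448 and 440 CPM at 500 pM, below the 695 and 735 CPM of the controls (log2 change −0.69, SE 0.040, edgeR adjusted p = 1.4e-11). CEBPG was at 80.05 and 80.2 CPM against 107 and 111 CPM (−0.44, SE 0.038). ATF5 was at 149.6 and 149.5 CPM, below the controls but above the 113 and 114 CPM of the low dose (−0.55 against control and 0.40 against the low dose, SE 0.045 and 0.048). EIF2AK4 was at 67.2 and 60.5 CPM against 77.2 and 73.4 CPM (−0.24, SE 0.048), a call lost when libraries were scaled by total counts (−0.06, adjusted p = 0.278). EIF2AK3, at 17.6 and 18.3 CPM against 20.2 and 17.95 CPM, was not called. Scaling by total counts moved the median of all genes by 0.18 in this comparison and the calls to 6304 higher and 3376 lower, from 4802 and 5075 with the trimmed mean of M-values (TMM). Under that scaling the 5 regulators that rose were still called higher and ATF4, ATF5 and CEBPG still lower.

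In HL-60 cells the rises lay mostly between the low and the high dose. Between 112.7 and 500 pM, 6 regulators were called higher and 3 lower, compared with 25.9% and 26.8% of all genes. DDIT3, not called at the low dose, rose by 1.48 (SE 0.10) and ATF3 by 1.44 (SE 0.10), ranking 793rd and 842nd of 13422 from the highest change. CEBPB rose by 0.80, TRIB3 by 0.63, ATF5 by 0.40 and PPP1R15A by 0.32. The libraries of the 2 doses lay apart upward in 7 of the 10 regulators, EIF2AK3 included, as in 36.8% of all genes, and downward in 3, as in 36.4%. ATF4 and EIF2AK4 each fell by 0.28, and CEBPG fell by 0.11 (adjusted p = 0.0259), a call that did not survive leaving out any single HL-60 treated library.

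Changes of more than 2-fold were few among the regulators, and in several comparisons were rare among all genes. At 11.1 pM in Molm-14 cells 0 of the 10 passed it in either direction, compared with 0.00745% of all genes higher and 0.0149% lower. At 100 pM 0 rose that far (3.29% of all genes), and from 11.1 to 100 pM 0 rose (2.26%) while TRIB3 and ATF5 fell (0.618%). At 112.7 pM in HL-60 cells 0 passed it, compared with 5.57% higher and 0.291% lower, and at 500 pM 0 fell that far (2.05%). From 112.7 to 500 pM ATF3 and DDIT3 rose by more than 2-fold (8.15%) and 0 fell (0.723%). Between the controls ATF5 was higher in HL-60 (16.5%) and ATF3 and DDIT3 lower (20.6%).

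**Figure D2:**
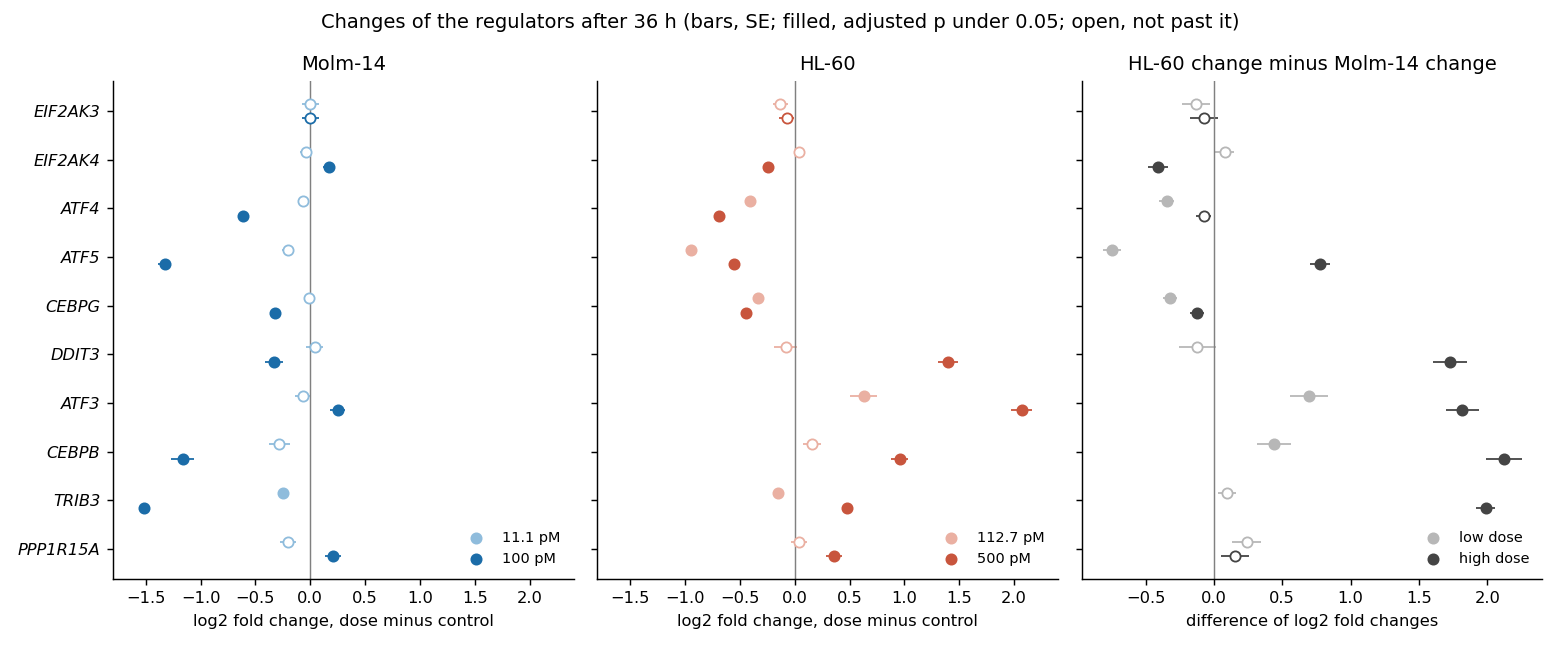
Log2 fold changes of the 10 regulators against the control of the same line (left, Molm-14; middle, HL-60) and the difference of these changes between the lines (right), with the standard error as bars. Filled points passed an adjusted p of 0.05 and open points did not. At the high dose TRIB3 and CEBPB lie at −1.51 and −1.16 in Molm-14 and at 0.48 and 0.96 in HL-60, while ATF4 lies at −0.61 and −0.69.

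The DDIT3 and ATF5 values need to be read with their neighbours. DDIT3 (chr12:57516588-57521737, minus strand) shares 355 of its 1307 exon bases with MARS1, the methionyl-tRNA synthetase gene on the opposite strand, which held 4540 to 18480 counts a library. No source used here states whether counting used strand. MARS1 fell by 0.64 at 500 pM in HL-60 cells (edgeR over all gene types) while DDIT3 rose, so the 2 moved in opposite directions there. In Molm-14 cells at 100 pM MARS1 fell by 1.14 as DDIT3 fell by 0.33, and between the controls MARS1 was lower in HL-60 by 0.84 as DDIT3 was by 1.29, so in these comparisons the neighbour moved the same way, and its part in the DDIT3 values was not tested. When the counts of DDIT3 were summed with those of its overlapping genes, most of which are MARS1 counts, the change at 500 pM was −0.43 (adjusted p = 2.0e-09). ATF5 (chr19:49928702-49933935) shares 565 of its 2892 exon bases with NUP62, a nuclear pore gene on the opposite strand, whose log2 change was −0.26 at 100 pM in Molm-14 cells and −0.0021 at 500 pM in HL-60 cells. NUP62 held 4601 to 12584 counts a library and fell by 0.18 between the HL-60 doses, where ATF5 rose by 0.40. Summed with its overlapping genes, ATF5 was no longer called between these doses (0.04, edgeR adjusted p = 0.276). That sum includes the NUP62 counts by construction, so it does not show how firm the ATF5 rise is. CEBPB (chr20:50190830-50192668) overlaps an antisense RNA that held 2 to 17 counts a library.

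In the other parts of the eIF2 module the calls at the high doses were mostly lower for eIF2, eIF2B and phosphatase genes. Those for the other kinases and activators went both ways. Of 7 other kinases and activators, 1 was called higher at 100 pM in Molm-14 cells, DELE1 (log2 change 0.22), which relays mitochondrial stress to the heme-regulated kinase. Of all genes 22.9% were called higher there. In HL-60 cells at 500 pM DELE1 (0.26) and the double-stranded RNA kinase EIF2AK2 (PKR, 0.20) were called higher, and PRKRA (−0.73), IMPACT (−0.61) and the protease OMA1 (−0.58) lower. At that dose 35.8% of all genes were called higher and 37.8% lower. PRKRA activates PKR, and IMPACT restrains GCN2. The list of eIF2 and eIF2B genes holds their 8 subunits and EIF2A, which encodes an unrelated initiation factor despite its name. All 9 were called lower in HL-60 cells at 500 pM, where 37.8% of all genes were, with a median of −0.43. The leading ones were EIF2A (−0.65), EIF2S1 (−0.53), EIF2B3 (−0.52) and EIF2S2 (−0.43), EIF2S1 being the alpha subunit that is phosphorylated. In Molm-14 cells at 100 pM 5 of the 9 were called lower, led by EIF2S2 (−0.53) and EIF2B3 (−0.32), and 1 higher, EIF2B4 (0.14). There 21.9% of all genes were called lower and 22.9% higher. Of the 5 phosphatase partners, the catalytic subunit PPP1CC fell by 0.19 in Molm-14 and by 0.96 in HL-60 cells at the high doses. The constitutive regulatory subunit PPP1R15B fell by 0.19 and 0.16 where its inducible relative PPP1R15A rose.

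Most ATF4 targets fell in Molm-14 cells, as ATF4 did. Of 52 tested, 43 fell at 100 pM and 4 rose, compared with 21.9% and 22.9% of all genes, and 22 fell by more than 2-fold, as 0.73% of all genes did. The list's median log2 change was −0.96 and that of all genes 0.00. ASNS fell from 208 and 205 to 37.0 and 38.9 CPM (log2 change −2.44, SE 0.041, edgeR adjusted p = 4.0e-18). PHGDH and PSAT1 of serine synthesis fell by 1.74 and 1.75, and SLC7A5 by 1.42, from 925 and 896 to 344 and 337 CPM. Grouped by role, a grouping made after the values were seen, all 13 enzymes of amino acid and one-carbon metabolism, all 8 amino acid transporters and all 12 genes of tRNA charging and export were called lower. Of 13 stress, secreted and regulatory proteins 10 were called lower and 2 higher. Of 6 autophagy and antioxidant genes 2 were called higher, SQSTM1 (0.41) and HMOX1 (1.60), and 0 lower. JDP2, a bZIP relative of ATF3, fell by 1.22.

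In HL-60 cells the same list was called in both directions, at shares near those of all genes. At 500 pM 21 of the 52 were called higher and 22 lower, compared with 35.8% and 37.8% of all genes, and 11 rose by more than 2-fold, as 16.5% of all genes did. The median was −0.04. Of the 12 genes of tRNA charging and export 9 were called lower, led by XPOT, the tRNA exporter (−0.89, SE 0.034), and GARS1 fell by 0.56 at the same dose. Of the 13 enzymes 7 were called lower and 3 higher, and of the 8 transporters 3 lower and 2 higher. These counts use the grouping made after the values were seen, and describe it only. ASNS fell from 69.4 and 69.6 to 41.3 and 42.1 CPM (−0.73). Of the 13 stress, secreted and regulatory genes 10 were called higher and 1 lower. STC2, a secreted glycoprotein, rose from 2.47 and 2.38 to 15.2 and 14.6 CPM (log2 change 2.62, SE 0.10), where it fell from 32.4 and 33.4 to 5.04 and 4.88 CPM in Molm-14 cells. CHAC1 behaved likewise, with 1.96 and 2.14 against 3.37 and 3.78 CPM in HL-60 (0.80) and 25.1 and 24.8 against 4.26 and 3.28 CPM in Molm-14 cells (−2.72). In the low-expressed GDF15 the HL-60 controls held no counts and the 500 pM libraries 25 and 40. Scaled by library totals and not by TMM, this is at least 42.5-fold higher when set against 3 counts over both controls. NUPR1, with 16 and 26 counts, was at least 27.5-fold higher with the same scaling by totals, and bounds with TMM scaling were not computed. Neither bound moves the median of the list. The study reported GDF15 as higher with DSA in Molm-14 cells too, by less than in HL-60 cells. SQSTM1, an autophagy receptor, rose from 92.9 and 96.2 to 370 and 376 CPM (1.98) and the heme oxygenase HMOX1 from 1.05 and 1.03 to 23.6 and 27.2 CPM (4.61). The levels of STC2, CHAC1 and ASNS in HL-60 cells at 500 pM stayed below those of the Molm-14 controls. JDP2, GDF15 and NUPR1, and the values of STC2, CHAC1 and HMOX1 in both lines, were chosen after they were seen.

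**Figure D3:**
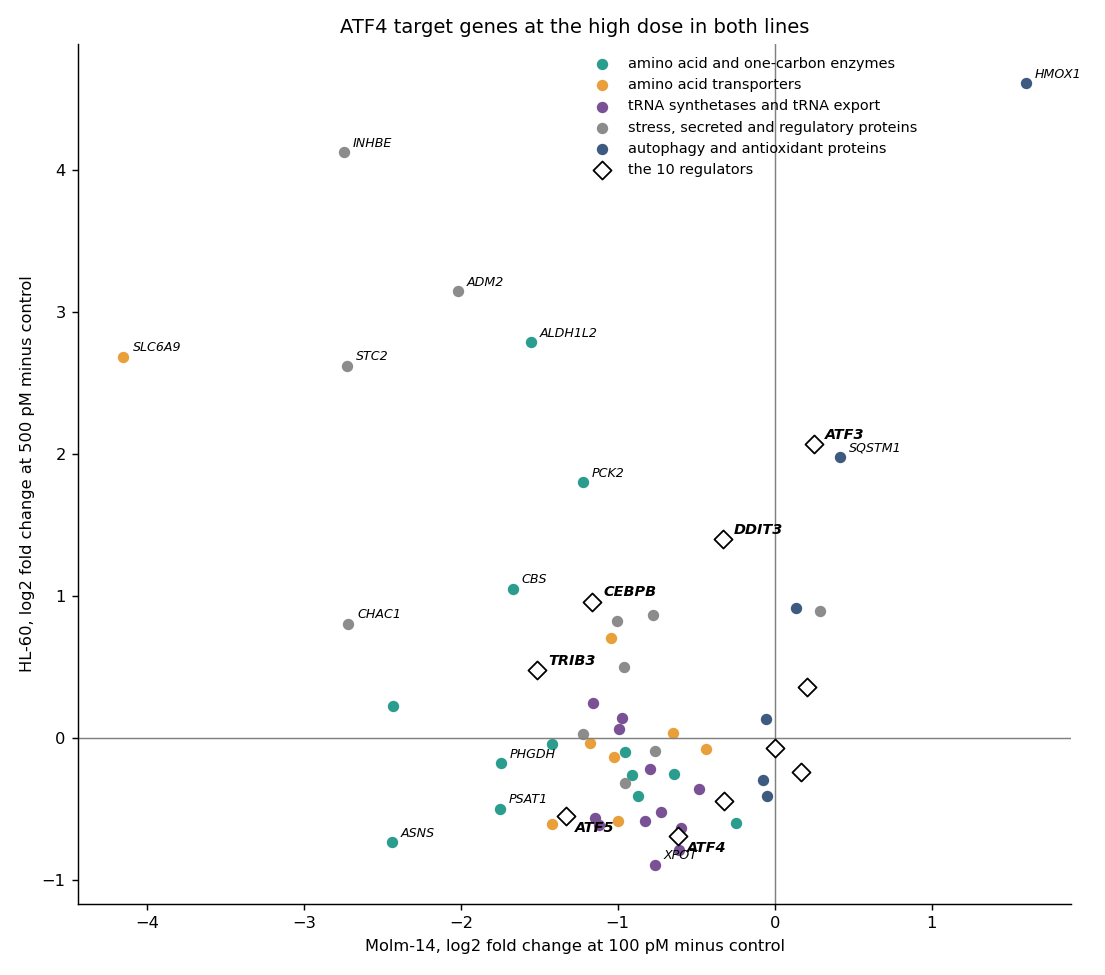
Log2 fold change at the high dose in Molm-14 (horizontal) and HL-60 cells (vertical) of the tested ATF4 targets, coloured by role, and of the 10 regulators (diamonds). GDF15 and NUPR1, without counts in the HL-60 controls, are not drawn. Most targets lie left of 0, and in HL-60 genes of tRNA charging and export lie mostly below 0 while STC2, CHAC1, INHBE and ADM2 lie above it.

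At the low dose of HL-60 cells 26 of the 52 ATF4 targets were called lower and 8 higher, compared with 27.4% and 24.2% of all genes, and the median was −0.13. SLC7A5 fell by 0.45, XPOT by 0.49 and GARS1 by 0.41, and SQSTM1 rose by 0.61. Of the 12 genes of tRNA charging and export 11 were called lower at this dose.

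Of 7 genes listed as CHOP targets, 3 were called higher and 3 lower at 500 pM in HL-60 cells, where 35.8% and 37.8% of all genes were. At 100 pM in Molm-14 cells 4 were called higher and 1 lower, where 22.9% and 21.9% of all genes were. TNFRSF10B, the TRAIL death receptor and also a p53 target, rose by 1.30 in HL-60 and by 0.82 in Molm-14 cells, where DDIT3 fell. GADD45A, which is a p53 target too, rose by 0.48 and 0.89. The co-chaperone DNAJC3 and ERO1A, an oxidase of the ER, fell by 0.55 and 0.34 in HL-60 cells.

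PERK is 1 of 3 sensors of unfolded protein, and the genes of the IRE1 and ATF6 arms and the ER chaperones, 30 in all, were nearly level in Molm-14 cells. At 100 pM 5 were called higher and 4 lower, compared with 22.9% and 21.9% of all genes, with a median of 0.04. XBP1, the factor spliced by IRE1, fell by 0.62, HERPUD1 by 0.28 and EDEM1 by 0.23, and CRELD2 rose by 0.50. In HL-60 cells at 500 pM 23 of the 30 were called lower and 6 higher, where 37.8% and 35.8% of all genes were, and the median was −0.35. The BiP chaperone gene HSPA5 fell by 0.85, HSP90B1 by 0.84, CALR by 0.80 and PDIA6 by 0.67 on the log2 scale. Between the HL-60 doses 16 of the 30 were called lower and 7 higher, where 26.8% and 25.9% of all genes were. Among those called higher were ERN1 (0.66) and EDEM1 (0.50), chosen after their values were seen. The relation of these genes to the rises of DDIT3, ATF3 and TRIB3 at 500 pM was not tested. Of 14 heat shock and mitochondrial chaperones 12 were called lower in HL-60 and 10 in Molm-14 cells at the high doses, where 37.8% and 21.9% of all genes were. In HL-60 cells 1 was called higher (35.8% of all genes), by more than 2-fold (16.5%), and in Molm-14 cells 0 (22.9%). HSPD1 fell by 0.72 in HL-60 and 0.26 in Molm-14 cells, and LONP1, a mitochondrial protease, by 0.58 and 0.78.

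**Figure D4:**
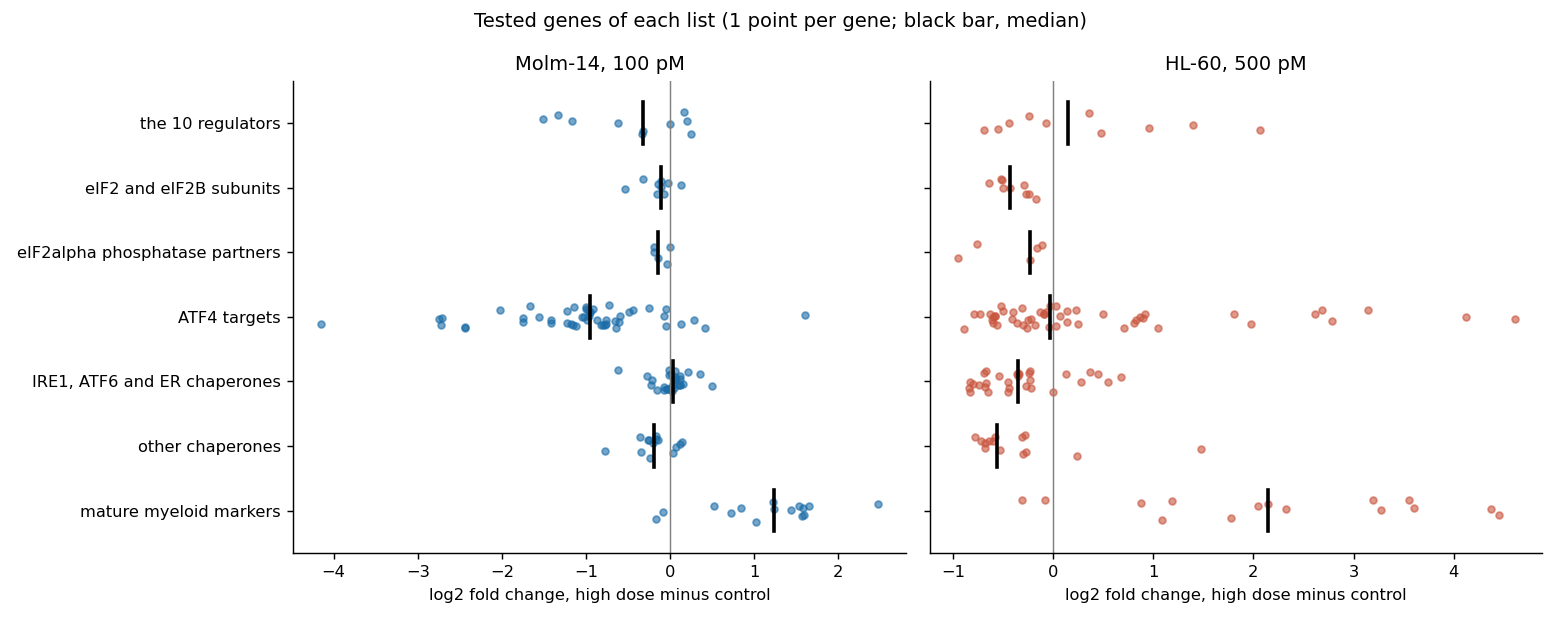
Log2 fold change at the high dose of each tested gene, by list (1 point per gene, spread vertically for visibility; black bars, the median over tested genes). GDF15 and NUPR1 are left out of the points. ATF4 targets have a median of −0.96 in Molm-14 and −0.04 in HL-60, and the IRE1, ATF6 and ER chaperone genes one of 0.04 and −0.35.

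Of 34 other bZIP genes, a family that can pair with the members, 10 were called higher and 4 lower in Molm-14 cells at 100 pM, where 22.9% and 21.9% of all genes were. In HL-60 cells at 500 pM 11 were called higher and 11 lower, where 35.8% and 37.8% of all genes were. BATF3 fell by 1.24 in Molm-14 cells and rose by 1.70 in HL-60 cells, the latter value chosen after it was seen. FOSL2 rose by 0.31 and 1.54. CEBPA, which drives granulocyte differentiation, rose by 0.23 in Molm-14 and fell by 0.57 in HL-60 cells, while NFIL3 rose by 1.45 in HL-60 cells. TRIB1, a relative of TRIB3 that promotes the loss of CEBPA protein, rose by 0.27 in Molm-14 and fell by 0.76 in HL-60 cells, the reverse of TRIB3 in each line. TRIB2, the other relative, rose by 2.08 in HL-60 cells, as TRIB3 did, and was not called in Molm-14 cells (−0.61, SE 1.27).

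Over the 12 libraries, with each line centred on its own mean of log2 CPM, the members were compared by Pearson correlation. These correlations are descriptions over 12 libraries that share their doses. ATF4 and CEBPG ran closely together (Pearson r = 0.97), ATF5 lay near both (r = 0.83 and 0.85), and ATF3 ran against ATF4 (r = −0.74). TRIB3 went with CEBPB (r = 0.91) and ATF5 (r = 0.80), and DDIT3 with ATF3 (r = 0.86). EIF2AK4 ran against DDIT3, CEBPB and TRIB3 (r = −0.87, −0.83 and −0.77), and the highest correlation of EIF2AK3 with another member was 0.38, with CEBPG. The genes most like TRIB3 were the ATF4 targets WARS1 (r = 0.99), SLC6A9 and CHAC1 (both r = 0.98). Those most like CEBPB began with DDIT4 (r = 0.98), and the ones most like ATF5 were HMMR (r = 0.99), MTHFD2 and HSPA13 (both r = 0.98). For ATF4 the nearest was HNRNPR, for CEBPG they were ASPM, RFC3 and C1orf109, and for ATF3 FCRLB, TP73 and DHRS9, all at r = 0.99. PPP1R15A was most like JUN, KLF4 and MARK4 (r = 0.96, 0.94 and 0.94), and DDIT3 like ZNF821, ENC1 and PXN (r between 0.97 and 0.98). EIF2AK4 was most like PIK3R2, TTC7A and DOCK11 (r between 0.96 and 0.98). EIF2AK3, which hardly moved, had RAB34 as its nearest gene (r = 0.96).

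Ranked by mean CPM over the 6 groups, most neighbouring groups were apart. TRIB3 was highest in HL-60 at 500 pM and lowest in Molm-14 at 100 pM, 3.08-fold apart, and CEBPB had the same ends, 6.95-fold apart. ATF3 spanned 9.27-fold, from Molm-14 at 100 pM to the HL-60 controls, and ATF5 7.96-fold, from the HL-60 controls to Molm-14 at 100 pM. For ATF3, ATF5, TRIB3 and CEBPB alike no neighbouring groups overlapped. The share of all tested genes with such an order was not computed, so this describes the members only. DDIT3 in HL-60 cells at 500 pM overlapped with Molm-14 cells at 11.1 pM, which in turn overlapped with the Molm-14 controls. ATF4 spanned 1.94-fold, PPP1R15A 1.55-fold and EIF2AK3 1.29-fold.

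The difference between the lines in their response was tested directly. At the high doses 5 of the 10 regulators changed more positively in HL-60 than in Molm-14 cells and 2 more negatively, compared with 25.1% and 30.3% of all genes. The largest differences were those of CEBPB, TRIB3, ATF3 and DDIT3, which were each over 2-fold, as 10.1% of all genes were in this direction, and 0 of the 10 passed 2-fold downward (2.21%). At the low doses 0 passed 2-fold upward (3.12%) or downward (0.238%). No difference was called for ATF4, at −0.07 (SE 0.056, edgeR adjusted p = 0.275; 0.08 and also uncalled with scaling by total counts). PPP1R15A at 0.15 (SE 0.10) was called in some alternatives, with 0.30 (adjusted p = 0.0227) under that scaling. There was no call for EIF2AK3 at −0.08 (SE 0.10). The targets did: 46 of 52 changed more positively in HL-60 cells and 5 more negatively. At the low doses 2 regulators changed more positively and 3 more negatively in HL-60 cells, compared with 15.4% and 19.9% of all genes. Doses differed between the lines in each of these comparisons.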

How the data were processed

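RNA from 12 libraries, 2 in each of 6 groups, was sequenced. The authors trimmed reads with Trim Galore (0.60), aligned them to hg38 with STAR (2.7) and quantified GENCODE 31 genes with RSEM (1.31), per the submitters' notes and the study's methods. The deposited values used here are expected counts and TPM, the authors' per-length values. Expected counts were rounded. Of 60754 gene identifiers 60261 matched GENCODE 44, and 19868 were protein-coding at level 1 or 2, after 45 chromosome Y copies were left out. Genes kept by edgeR's filter (13422) were fitted in edgeR 4.0.16 (R 4.3.3) with the quasi-likelihood test, TMM factors and 1 mean per group. P-values were adjusted by Benjamini-Hochberg over all tested genes, with calls at 0.05, and SE is the log2 change divided by the root of F. CPM are TMM-scaled.

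Library totals ranged from 21177424 to 63927449. Alternatives used DESeq2 1.42.0, limma 3.58.1, other scalings, filters, gene types, fewer libraries, thinned counts and a replicate block. The code was tested on simulated data. Members and lists were chosen with earlier results of these data known. All 10 members are named. Of each other list up to 4 genes with the smallest p in each comparison of a dose with control are named, as are the 3 genes most like each member (Pearson r of log2 CPM + 0.5). Any others are said to be chosen after their values were seen. Some genes that this rule names are not reported here. Promoter sequences were from RefSeq.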

Additional observations from a re-analysis of the deposited data

Results flagged for a closer look

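Changes against the own control differed between the lines for 5 regulators at the low and 7 at the high doses, by edgeR's interaction contrast over all 13422 genes. Of all genes 15.4% changed more positively and 19.9% more negatively in HL-60 cells at the low doses, and 25.1% and 30.3% at the high doses. Values are the log2 change of HL-60 cells with that of Molm-14 cells subtracted. At the high doses (500 pM in HL-60, 100 pM in Molm-14) CEBPB differed by 2.12 (SE 0.13, adjusted p = 1.4e-10), TRIB3 by 1.99 (SE 0.069, adjusted p = 5.4e-14), ATF3 by 1.82 (SE 0.12, adjusted p = 3.5e-10) and DDIT3 by 1.73 (SE 0.12, adjusted p = 1.2e-09). ATF5 differed by 0.78 (SE 0.072), falling in both lines but further in Molm-14 cells. EIF2AK4 differed by −0.41 (SE 0.070), rising in Molm-14 and falling in HL-60 cells. CEBPG differed by −0.12 (SE 0.052, adjusted p = 0.0495), which was not past the threshold in 14 of the alternatives. At the low doses (112.7 pM and 11.1 pM) ATF5 differed by −0.75 (SE 0.068), ATF4 by −0.35 (SE 0.055) and CEBPG by −0.33 (SE 0.051). None of these 3 genes was called in Molm-14 cells at 11.1 pM. In some alternatives ATF5 was called lower there (−0.21 with DESeq2, adjusted p = 0.0264). ATF3 differed by 0.69 (SE 0.14) and CEBPB by 0.44 (SE 0.13, adjusted p = 0.0105), and the CEBPB call was lost without the first low-dose HL-60 library (0.31, adjusted p = 0.0627). The sign of the ATF5 difference was opposite at the low and the high doses. Dose, medium and serum differ with the line and cannot be told apart from it.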

How the results depend on the processing

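Over the 10 regulators, 9 comparisons and the alternatives, 1955 of 2070 values kept their direction and their side of the threshold, 43 lost and 28 gained a call, and 44 turned sign, of which 41 were called under neither setting. The 3 other sign turns were DDIT3 in HL-60 at 500 pM (−0.43, adjusted p = 2.0e-09) and between the HL-60 doses (−0.15) when its counts were summed with those of overlapping genes, where MARS1 makes up most of the sum by construction, and the CEBPG difference between lines at the high doses with total counts (0.027, uncalled). The sum also turned the uncalled DDIT3 change in Molm-14 at the low dose, to −0.040. With a fold over 2 also required, the regulators called higher and lower numbered 0 and 0 in Molm-14 at the low dose, 0 and 3 at the high dose and 0 and 2 between the doses. In HL-60 they numbered 0 and 0, 2 and 0, and 2 and 0, between the controls 1 and 2, and in the difference between lines 0 and 0 at the low doses and 0 lower at the high doses. The regulators called lower in Molm-14 at the low dose, 1 in the report, were 2 with DESeq2, 4 with no filter on low counts, 2 with a mean of at least 50 counts, 3 with only the libraries compared, 0 at equal depth and 0 to 2 with 1 library left out. Those called higher in HL-60 at the low dose, 1 in the report, were 2 with relative log expression (RLE) factors, with total counts and with no filter, and 1 to 2 with 1 library left out. Those that changed more negatively in HL-60 at the high doses, 2 in the report, were 1 with DESeq2, RLE factors, total counts, no filter, the mean of 50 counts, only the libraries compared and equal depth, and 1 to 2 with 1 library left out, CEBPG being the call lost. Leaving out 1 library gave 0 to 3 called higher in Molm-14 at the high dose, 0 without the second control or the first high-dose library, and 1 to 3 that changed more positively in HL-60 at the low doses, 1 without the first low-dose HL-60 library.

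EIF2AK3, uncalled and near 0 in Molm-14, was negative at the low dose, the high dose and between them with DESeq2 (−0.0031, −0.0041 and −0.00099), RLE factors (−0.0036, −0.0044 and −0.00080), no filter (−0.0093, −0.014 and −0.0047) and all gene types (−0.014, −0.022 and −0.0084). It was −0.00093 with limma-voom at the low dose, and −0.0039 at the high dose and −0.0070 between doses with only the libraries compared. With 1 library left out it ranged from −0.040 to 0.040, −0.028 to 0.030 and −0.039 to 0.040. Scaling by total counts turned the uncalled CEBPG change in Molm-14 at the low dose to 0.0090, EIF2AK3 in HL-60 at 500 pM to 0.11 and the differences between lines at the high doses of ATF4 and EIF2AK3 both to 0.076. Leaving out 1 library gave, at the low dose, −0.013 to 0.088 for DDIT3 and −0.035 to 0.015 for CEBPG in Molm-14, and −0.10 to 0.21 for PPP1R15A and −0.00026 to 0.072 for EIF2AK4 in HL-60. The cause of these turns was not tested. The labels do not say whether libraries of the same number were paired. The correlation of same-numbered deviations lay between −0.081 and 0.11, over 0.1 in 1 of 15 pairs of groups. Such values cannot settle whether the libraries shared a culture or batch. With the replicate block 2 regulators were called lower in Molm-14 at the low dose, and EIF2AK3 between the Molm-14 doses was −3.1e-05. The 43 ATF4 targets called lower in Molm-14 at the high dose numbered 43 in every alternative, and the 9 at the low dose 0 to 17. With 2 libraries a group, small changes of low-expressed genes such as DDIT3 and ATF3 in HL-60 may be missed.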
